A study of Mus musculus with 21 samples.

Results

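The genes described here are 7 small heat shock protein genes, Hspb1, Hspb2, Hspb3, Hspb6, Hspb7, Hspb8 and Cryab, with Bag3 and Stub1, the co-chaperone and the ubiquitin ligase that work with them. They were chosen by name and are 9 of the 20960 genes in the deposited count table, and all 9 passed the filter on low counts in every comparison. Hearts of wild-type adult male mice were studied by bulk RNA-seq. In the nanoplastics group 4 mice received polystyrene nanoplastics over 8 weeks, and in the control group 3 mice received distilled water. Each perfused heart was divided into 3 sections, labelled atrial, right ventricular and left ventricular, and each section of each mouse gave 1 library, 21 in all. Strain, age, particle size, dose and route were not given in the sources used here.

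Small heat shock proteins bind unfolding proteins without using ATP and hold them until other chaperones refold them or pass them on for degradation. In heart and skeletal muscle they are abundant and protect actin, desmin, titin and filamin, which are strained at every contraction. Bag3 joins Hspb8 and other small heat shock proteins to Hsp70, and Stub1, also called CHIP, attaches ubiquitin to the protein held by Hsp70. Together they run chaperone-assisted selective autophagy, by which muscle clears damaged filamin from the Z-disc. Many heat shock genes are switched on by heat shock factors, which bind inverted GAA units in their promoters.

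RefSeq promoters (build GRCm38.p6), from 250 bases before to 50 after the annotated start, were listed for 7 of the 9 genes; Hspb2 and Cryab had none listed. Those of Hspb7, the gene whose treated and control libraries did not overlap, of Hspb1 and Hspb6, whose levels followed each other from mouse to mouse, and of Hspb8, which ran against them, are shown 5′ to 3′ on the strand of the gene. Capitals mark a pair of inverted heat shock units, GAANNTTC; TTCNNGAA was searched too, and each of the 2 motifs reads the same on both strands.
Hspb7: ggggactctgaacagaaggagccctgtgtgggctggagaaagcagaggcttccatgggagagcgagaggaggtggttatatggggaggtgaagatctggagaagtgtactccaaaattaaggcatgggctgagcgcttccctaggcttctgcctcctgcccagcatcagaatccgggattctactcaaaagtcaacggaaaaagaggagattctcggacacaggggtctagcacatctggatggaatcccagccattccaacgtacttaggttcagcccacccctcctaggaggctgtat
Hspb1: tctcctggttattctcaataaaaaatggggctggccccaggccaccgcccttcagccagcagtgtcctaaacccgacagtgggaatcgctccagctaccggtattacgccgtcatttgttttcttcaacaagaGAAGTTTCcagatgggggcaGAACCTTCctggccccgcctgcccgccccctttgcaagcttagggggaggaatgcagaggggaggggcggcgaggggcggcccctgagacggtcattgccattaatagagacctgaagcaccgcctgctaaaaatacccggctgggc
Hspb6: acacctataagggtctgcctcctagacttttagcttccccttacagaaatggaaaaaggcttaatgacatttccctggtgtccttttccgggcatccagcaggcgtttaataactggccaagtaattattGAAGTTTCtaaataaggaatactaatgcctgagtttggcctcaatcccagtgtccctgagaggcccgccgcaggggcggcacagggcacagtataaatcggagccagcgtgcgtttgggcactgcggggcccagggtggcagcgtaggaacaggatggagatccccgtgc
Hspb8: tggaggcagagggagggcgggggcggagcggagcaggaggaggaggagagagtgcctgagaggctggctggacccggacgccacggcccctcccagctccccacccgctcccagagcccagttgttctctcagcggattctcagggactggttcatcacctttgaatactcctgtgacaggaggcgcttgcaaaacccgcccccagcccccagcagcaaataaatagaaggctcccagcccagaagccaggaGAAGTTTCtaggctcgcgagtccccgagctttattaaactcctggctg
The windows lie at chr4:141420529-141420828 (plus strand) for Hspb7, chr5:135887669-135887968 (plus strand) for Hspb1, chr7:30553051-30553350 (plus strand) for Hspb6 and chr5:116422815-116423114 (minus strand) for Hspb8. Hspb1 held GAANNTTC at 117 and at 97 bases before its start, Hspb6 at 120 bases before it, and Hspb8 at 2 bases after it. Hspb6 had another listed window, farther upstream, with neither motif. Bag3, Hspb3 and Stub1 each held GAANNTTC once, so that 6 of the 7 genes with a window held a pair. Neither motif was found in the window of Hspb7. One or the other was found in 15.1% of the 32851 promoters listed. The 3-unit forms, GAANNTTCNNGAA and TTCNNGAANNTTC, which overlap both motifs, were in 0.603% of promoters and in none of the windows of these genes. A match of letters is a description and not a measured binding site.

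Levels are CPM, counts scaled to library size, after edgeR's trimmed mean of M values (TMM) correction. The right ventricular library of nanoplastics mouse 2 held only 4662 counts, in which Cryab had 7, Hspb8 had 2, Hspb7 had 1 and the other 6 genes had 0. It was left out wherever levels are given, which leaves 11 nanoplastics and 9 control libraries, and was kept in the tests. The other libraries held 413436 to 2439314 counts. Heart muscle markers were above 0 in all 20 libraries, with summed levels of 44240 to 59480 CPM in nanoplastics libraries and 35380 to 54830 CPM in control libraries. Of 6 atrial muscle markers, Myl7, Myl4, Sln and Bmp10 had medians of 5.06, 3.49, 5.19 and 0 CPM over the 20 libraries, while Nppa (median 242 CPM) and Kcnj3 (18.5 CPM) were above 0 in all. Their summed level in sections labelled atrial was 63910, 288.9, 48.46 and 3212 CPM in nanoplastics mice 1 to 4, and 235.5, 672.1 and 377.8 CPM in controls. The left ventricular section of nanoplastics mouse 4 also had 2269 CPM. Of 5 skeletal muscle markers in the table, Ckm (614 to 1450 CPM) and Acta1 (26.8 to 285 CPM), which heart muscle also expresses, were above 0 in all libraries, Mylpf was at 0 in 2, Tnnt3 in 11 and Myh1 in 19. The skeletal sums were 816.1 to 1573 CPM in nanoplastics and 858 to 1478 CPM in control libraries. In bulk tissue, fewer cells of a type and less RNA per cell cannot be told apart. Counted transcripts were shorter in nanoplastics libraries, where the median annotated length per count was 1318 to 1598 nt, against 1633 to 1796 nt in control libraries.

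Cryab, which encodes alpha B-crystallin, was the most abundant of the 9 transcripts in each of the 20 libraries, with or without division by length. On the scale of CPM per kilobase of the longest annotated transcript, Bag3 was the least abundant in each, while on the CPM scale Hspb3 was lower than Bag3 in the atrial section of control mouse 3 (28.9 and 36.9 CPM). Per kilobase, Cryab had a median of 1280 (805 to 3540, 20 libraries). Hspb7, a small heat shock protein of heart and skeletal muscle, came next with 197 (159 to 316). Hspb2, a partner of the myotonic dystrophy kinase, had 143, Hspb1, the actin-binding Hsp25 of mice, had 129, and Hspb6, also called Hsp20, had 114. Hspb8, the partner of Bag3, had 89.8. Hspb3, which assembles with Hspb2 in muscle, had 48.5, Stub1 had 46.9 and Bag3 had 7.42 (2.67 to 14.4). Some neighbours in this order were separated throughout: Cryab was above Hspb7, Hspb8 above Hspb3 and Stub1 above Bag3 in 20 of 20 libraries. Hspb2 was above Hspb1 in 12 of 20 and Hspb3 above Stub1 in 11 of 20, so these pairs did not differ beyond their spread. Of all counts of the 9 genes, Cryab took 57.3% and Hspb7 19.3%. Bag3 rested on 3 to 51 counts per library. The library kit tags the 5′ end of transcripts, for which division by length may not be the right scale; without it only Cryab, Hspb7 and Bag3, 3 of the 9, kept their rank by median. Hspb2 and Cryab lie head to head on chromosome 9, with annotated starts 1029 nt apart and exons that overlap on opposite strands. Whether the counting used strand was not given, so reads shared by this pair cannot be assigned with certainty, and the same holds for Hspb6 with Proser3 and Lin37 and for Stub1 with Jmjd8.

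**Figure D1:**
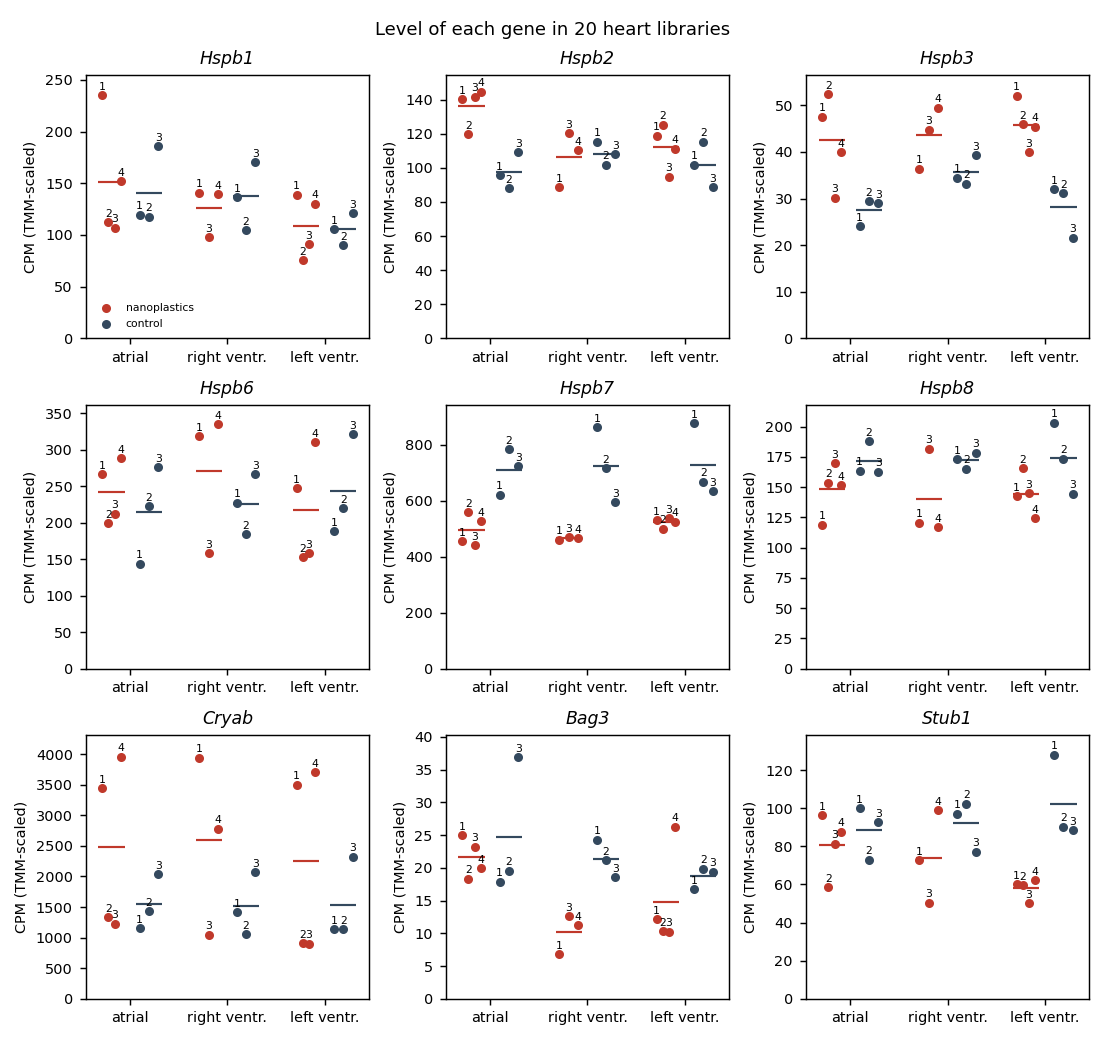
Level of each of the 9 genes (CPM, TMM-scaled, linear axes) in the 11 nanoplastics libraries (red, left) and 9 control libraries (blue, right) of each section. Points are single libraries numbered by mouse and bars are group means; for Hspb7 the nanoplastics points lie at 441 to 558 CPM, below the control points at 595 to 875 CPM in every section.

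Hspb7, which is needed for orderly thin filaments in the sarcomere, was lower in nanoplastics hearts in each of the 3 sections. Treatment values were known when the genes were chosen, so levels, differences and counts of calls in the treatment comparisons are given as a description, without p-values of single genes, and nothing rests on them. With the counts of a mouse's sections summed, Hspb7 had 458.1, 497, 472 and 479.8 CPM in nanoplastics mice 1 to 4, and 737, 654 and 615 CPM in control mice 1 to 3. All 4 nanoplastics mice lay below all 3 controls, and they lay closer together, with means of 477 ± 16.1 CPM and 669 ± 62.7 CPM (SD, n = 4 and 3). The log2 difference, nanoplastics over control, was -0.49 (SE 0.12), a ratio of 0.713. At an adjusted p under 0.05 in edgeR's quasi-likelihood fit, 2.56% of all 8485 genes were called, 1.79% as higher and 0.766% as lower. Hspb7 was the only 1 of the 9 past that threshold, which is no independent evidence for a gene chosen with these values known.

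In atrial sections Hspb7 had 454, 558, 441 and 526 CPM in nanoplastics mice 1 to 4, and 620.5, 783 and 722 CPM in controls. In right ventricular sections it had 459.8, 469.9 and 466 CPM in nanoplastics mice 1, 3 and 4, and 863, 716 and 595 CPM in controls. Left ventricular sections had 529.5, 499.6, 536 and 525 CPM in nanoplastics mice, and 875, 667 and 633 CPM in controls. Thus the groups did not overlap in any section, nor across all 20 libraries: the nanoplastics libraries had 441 to 558 CPM (median 500, n = 11) and the control libraries 595 to 875 CPM (median 716, n = 9). No other gene of the 9 was free of overlap over all 20 libraries, and 0.589% of the 8485 genes were, 4 genes or 0.0471% as lower. The log2 differences were close to each other, at -0.56 (SE 0.17) in atrial, -0.54 (SE 0.28) in right ventricular and -0.53 (SE 0.14) in left ventricular sections.

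The sign for Hspb7 was negative in all 15 alternative analyses of the whole heart, between -0.73 and -0.38. The call was lost when any 1 of the 7 mice was left out, with which all calls went to between 0 and 201, against 217. It was also lost with DESeq2's size factors and with the trend over transcript length removed, where the difference was -0.43 (SE 0.11). With the sections at equal weight the call was lost too. That fit gave the right ventricular library of nanoplastics mouse 2, with 4662 counts, the weight of a full section.

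Hspb3 and Hspb2, which form a complex in muscle, were higher in nanoplastics hearts when sections were summed. A sum weights each section by its depth. Atrial sections gave 27.6, 55.2, 30.4 and 62.5% of the counts of nanoplastics mice 1 to 4. In control mice 1 to 3 they gave 19, 20.2 and 42.4%. The part of these shares in the summed differences was not tested. Hspb3 had 44.5, 46.2, 36.9 and 39.6 CPM in nanoplastics mice 1 to 4, and 28.2, 29 and 30.4 CPM in control mice. Hspb2 had 112, 114, 113 and 122 CPM in nanoplastics mice, and 95.7, 96.5 and 99.2 CPM in control mice. In both genes every nanoplastics mouse lay above every control. The log2 difference was 0.51 (SE 0.15) for Hspb3 and 0.25 (SE 0.12) for Hspb2, and neither was called. The sign of Hspb2 turned in 3 of 15 alternative analyses and that of Hspb3 in none. Among these 3, Hspb2 stood at 0.00 with library totals and with the length trend removed, and at -0.28 with sections at equal weight. Hspb3 and Hspb2, with Hspb7 and Stub1, which were lower, were the 4 of 9 genes whose summed levels did not overlap. Beside them were 16.1% of all genes tested (7.88% higher, 8.17% lower).

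For Hspb3 the difference was of like size in each section, at 0.59 (SE 0.24) in atrial, 0.44 (SE 0.27) in right ventricular and 0.59 (SE 0.21) in left ventricular sections. Left ventricular sections had 52.1, 45.9, 39.9 and 45.4 CPM of Hspb3 in nanoplastics mice, and 32, 31.2 and 21.6 CPM in controls, without overlap. For Hspb2 the difference stood in atrial sections, with 140.1, 120, 142 and 144 CPM in nanoplastics mice, and 95.5, 88.2 and 109 CPM in controls, at 0.45 (SE 0.18). It was 0.12 (SE 0.24) in right ventricular and 0.07 (SE 0.17) in left ventricular sections, where the groups overlapped. The atrial and left ventricular differences of Hspb2 were not shown to differ (0.38, SE 0.24, adjusted p = 0.931 in edgeR's interaction test).

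Transcript length moved with these values. Hspb1, Hspb2, Hspb3 and Cryab are in the shortest of 5 equal groups of the genes tested by length (57 to 1644 nt). The median log2 difference of that group was 0.18, with 119 genes called higher and 10 lower. In the group that holds Hspb6, Hspb8, Bag3 and Stub1 (1645 to 2627 nt) the median was -0.02, and in the group of Hspb7 (2627 to 3658 nt) it was -0.06. With the length trend removed, Hspb2 stood at 0.00 and Hspb3 at 0.26 (SE 0.15), while Stub1 stayed at -0.44. The part of length in the treatment differences was not tested further.

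**Figure D2:**
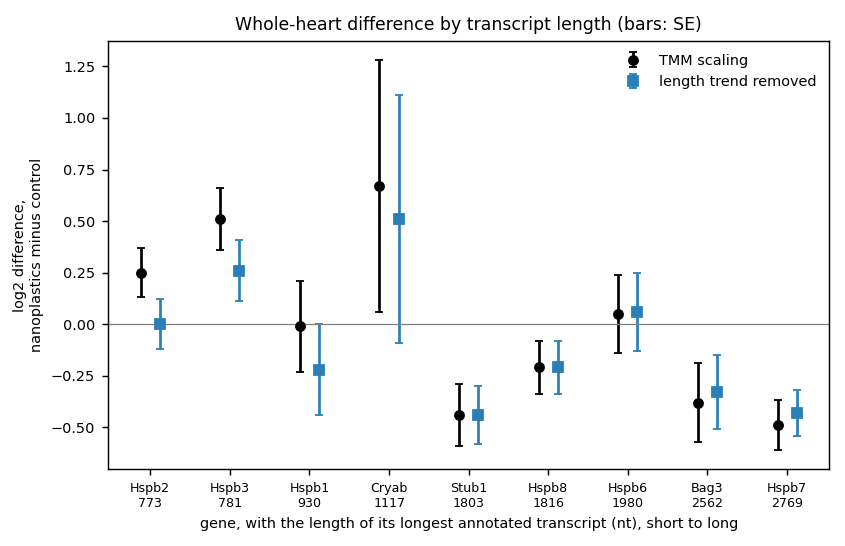
Log2 difference of summed counts, nanoplastics over control, with its standard error, for the 9 genes against the length of their longest annotated transcript. Black circles are TMM-scaled values and blue squares the values with the trend over length removed; Hspb2 drops to 0.00 and Hspb3 to 0.26, while Hspb7 stays at -0.43.

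Stub1, Bag3 and Hspb8 all had negative differences in the whole heart, and none of the 3 was called. Stub1 had 68.9, 55, 58.4 and 76.6 CPM in nanoplastics mice 1 to 4, and 99.6, 83.6 and 80.1 CPM in controls, with no overlap and a log2 difference of -0.44 (SE 0.15). The difference was widest in left ventricular sections, at -0.88 (SE 0.19). There Stub1 had 60.2, 59.7, 50.2 and 62.2 CPM in nanoplastics mice, and 128, 90.4 and 88.6 CPM in controls. In atrial sections it had 96.3, 58.5, 81.4 and 87.6 CPM in nanoplastics mice, and 100, 73 and 92.6 CPM in controls, and the groups overlapped there and in the right ventricle, with differences of -0.17 (SE 0.22) and -0.21 (SE 0.25).

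Bag3 had 14.3, 13.9, 14.6 and 18.9 CPM in nanoplastics mice, and 18, 18.7 and 24.9 CPM in controls, so that only nanoplastics mouse 4 reached the control range. Its log2 difference was -0.38 (SE 0.19). In right ventricular sections Bag3 had 6.83, 12.6 and 11.2 CPM in nanoplastics mice 1, 3 and 4, from 3, 9 and 5 counts, and 24.3, 21.2 and 18.6 CPM in controls. The groups did not overlap there and the difference was -0.88 (SE 0.38), on very few counts in the treated libraries. These 3 treated libraries held 438053 to 813585 counts in total and the control ones 1333133 to 2042568. Depth and treatment thus cannot be told apart in right ventricular sections.

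Hspb8 had 122, 149, 158 and 129.7 CPM in nanoplastics mice, and 166, 160.3 and 157 CPM in controls. Nanoplastics mouse 3 lay within the control range, and the difference was -0.21 (SE 0.13).

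Within single sections edgeR called none of the 9 genes, beside 0% of genes in atrial, 0.869% in right ventricular and 0.0551% in left ventricular sections. At an unadjusted p under 0.05 there were 3 of the 9 in atrial (12.3% of genes), 2 in right ventricular (13.5%) and 3 in left ventricular sections (14.1%). DESeq2 gave an adjusted p to only 2 of the 9 genes in atrial and to 3 in left ventricular sections, of which it called Hspb7 in each, beside 19.3% and 11.5% of the genes with an adjusted p. In right ventricular sections all 9 had one and none was called, beside 0% of genes. Groups did not overlap for 3 genes in atrial sections (Hspb2 and Hspb3 higher, Hspb7 lower), beside 13.4% of genes (8.05% higher, 5.33% lower). They did not overlap for 2 in right ventricular sections (Hspb7 and Bag3 lower), beside 23.1% of genes (6.93% higher, 16.2% lower), and for 3 in left ventricular sections (Hspb3 higher, Hspb7 and Stub1 lower), beside 10.3% (6.47% higher, 3.82% lower).

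For Cryab, Hspb1 and Hspb6 the highest and lowest mouse of each group lay farther apart than the group means did. Cryab had 3311, 1072, 1012 and 3461 CPM in nanoplastics mice 1 to 4, and 1129, 1080 and 1965 CPM in controls. Nanoplastics mice 1 and 4 were thus above every control, and mice 2 and 3 below every control. Means were 2210 ± 1350 CPM in nanoplastics mice and 1390 ± 498 CPM in controls (SD, n = 4 and 3), and the log2 difference of 0.67 had an SE of 0.61. Hspb6 had 247, 167, 170.1 and 279 CPM in nanoplastics mice, and 175, 192 and 262 CPM in controls, a difference of 0.05 (SE 0.19). Hspb1 had 159, 90.1, 94.9 and 134 CPM in nanoplastics mice, and 109, 93.2 and 159.7 CPM in controls, a difference of 0.00 (SE 0.22). The signs of Hspb1 and Hspb6 turned between alternative analyses, and that of Cryab did not. In all 3 genes nanoplastics mice 1 and 4 and control mouse 3 were the high animals.

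The sections of a mouse repeated this pattern. Cryab had 3442, 3940 and 3502 CPM in the atrial, right and left ventricular sections of nanoplastics mouse 1, and 3956, 2782 and 3707 CPM in those of mouse 4. In nanoplastics mouse 3 it had 1227, 1048 and 899 CPM, and in mouse 2 it had 1330 and 907 CPM in the atrial and left ventricular sections. Among controls, mouse 3 had 2039, 2069 and 2322 CPM, mouse 1 had 1152, 1415 and 1136 CPM, and mouse 2 had 1434, 1051 and 1133 CPM.

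Of the variation of Cryab within treatment and section groups on the log2 scale, 93.8% lay between mice. This share was 87.5% for Hspb1 and 82% for Hspb6, against a median of 53.9% over the 1726 genes with at least 50 CPM. Hspb2, the neighbour of Cryab on chromosome 9, was at the other end with 3.86%, and its mouse means spanned 1.2-fold, against 3.42-fold for Cryab. Hspb7 had 29.5%, Bag3 29.4% and Hspb3 25.3%, and Hspb8 (53.6%) and Stub1 (52.6%) were near the median. Bag3 and Hspb3, at medians of 19 and 37.8 CPM, lie below the 50 CPM of the genes compared. With so few libraries per mouse, some share lies between mice even where mice do not differ, and that floor was not estimated.

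**Figure D3:**
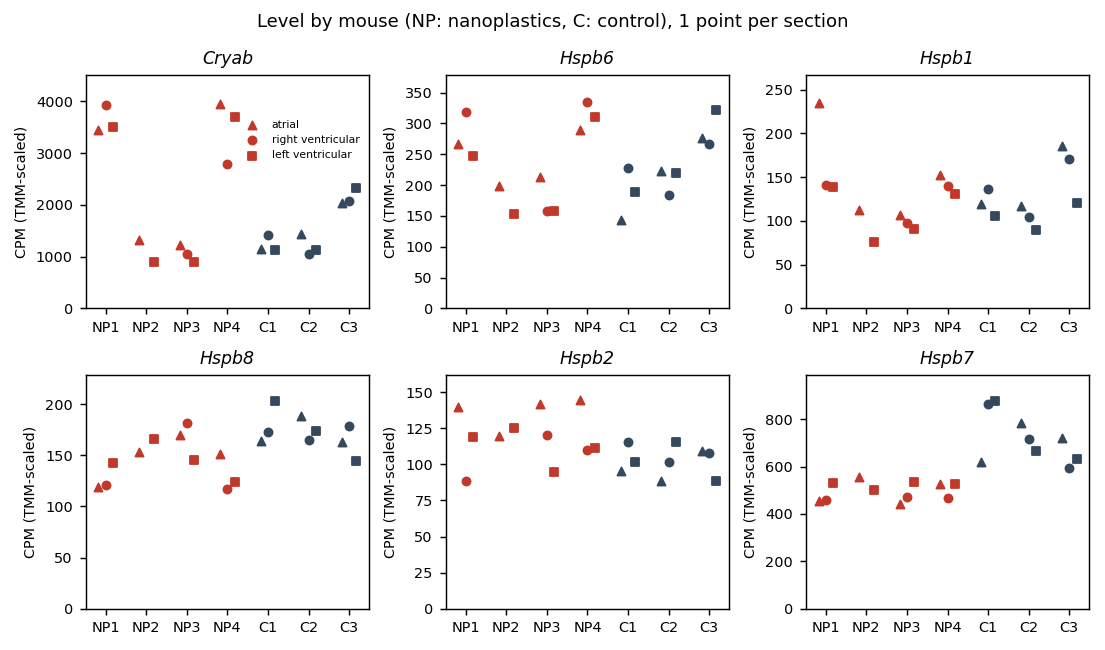
Levels (CPM, TMM-scaled) of Cryab, Hspb6, Hspb1, Hspb8, Hspb2 and Hspb7 in each mouse, nanoplastics mice (NP) left of control mice (C). Triangles are atrial, circles right ventricular and squares left ventricular sections. Cryab, Hspb6 and Hspb1 are high in NP1, NP4 and C3, while mouse means of Hspb2 are close together within each treatment group.

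Across the 20 libraries, which include up to 3 from each mouse, Pearson's r of log2 levels was 0.86 between Hspb6 and Cryab, 0.74 between Hspb1 and Cryab and 0.66 between Hspb1 and Hspb6. Centred on the means of treatment and section groups, these were 0.90, 0.86 and 0.76. Hspb8 ran the other way, with centred values of -0.68 with Cryab, -0.68 with Hspb6 and -0.66 with Hspb1. Hspb2 and Cryab had 0.14, and -0.06 when centred. Over all 36 pairs of the 9 genes the median was 0.12, and 0.10 when centred. Hspb3 and Hspb7 had -0.53 over all libraries, which carry the opposite treatment differences of the pair, and 0.37 when centred. These are descriptions: libraries of 1 mouse share their animal, and all share scaling and sequencing.

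**Figure D4:**
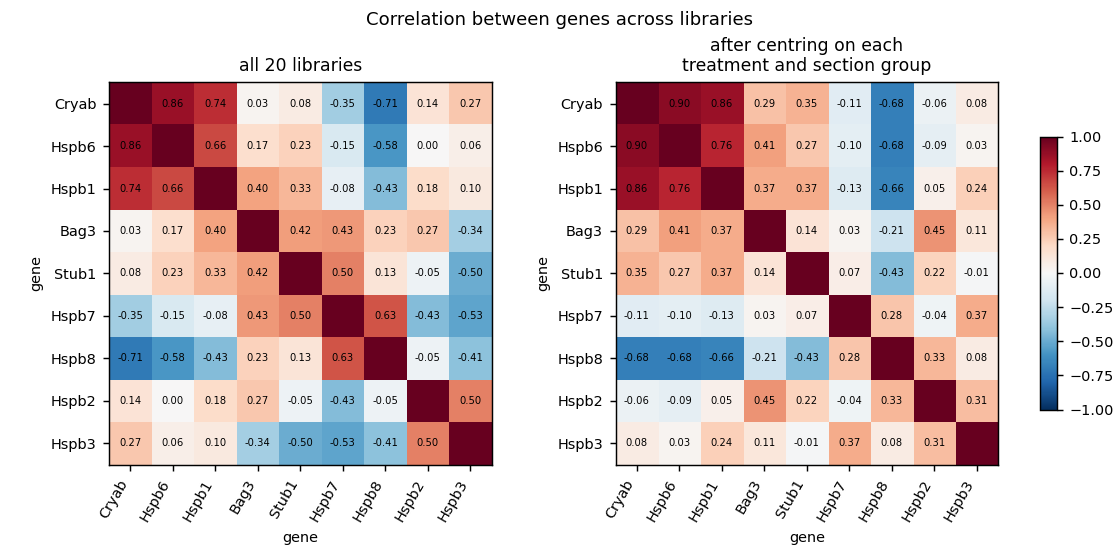
Pearson's r of log2 levels for the 36 pairs of the 9 genes over 20 libraries, as measured and centred on treatment and section group means. Cryab, Hspb6 and Hspb1 form a block of high values in both panels (0.66 to 0.90), and Hspb8 is negative with each of them.

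The genes outside the 9 with levels most like Cryab, of 1719 compared, were Mdh2, the mitochondrial malate dehydrogenase (r = 0.95, centred 0.95), Actc1, cardiac alpha-actin (0.94, centred 0.94), and Ndufs7, a subunit of respiratory complex I (0.94, centred 0.94). Actc1, itself a heart muscle marker, had mouse means of 11800, 5240, 5700 and 11900 CPM in nanoplastics mice 1 to 4, and 4730, 5820 and 9690 CPM in controls, so it was high in the same mice as Cryab. The summed heart muscle markers, Actc1 among them, spanned less: in left ventricular sections they were 52290, 44240, 49730 and 59480 CPM in nanoplastics mice, and 35380, 47070 and 49870 CPM in controls. In atrial sections they were 44580, 46790, 53630 and 59240 CPM in nanoplastics mice, and 42260, 54500 and 54830 CPM in controls. In right ventricular sections they were 52310, 45990 and 57770 CPM in nanoplastics mice 1, 3 and 4, and 46480, 44430 and 52860 CPM in controls. The highest 3 mice were the same as for Cryab in both ventricular sections but not in atrial sections, and the part of muscle content was not tested. Most like Hspb1 were Psmc4, a proteasome ATPase (0.79), Clu, the secreted chaperone clusterin (0.79), and Gstm1, a glutathione transferase (0.75). Among the genes most like Hspb7 were Tmem134 (0.86, centred 0.56) and the elongation factor gene Eef1g (0.79, centred 0.54). Most like Bag3 were Cpe, carboxypeptidase E (0.76), Id3, an inhibitor of DNA binding (0.75, centred 0.41), and Pfn1, profilin (0.73, centred 0.37).

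Sections are compared by label, and most of those labelled atrial had few atrial muscle markers. Ventricular muscle markers summed there to 13680 to 21290 CPM in nanoplastics and 16480 to 22440 CPM in control mice. Left ventricular sections had 16790 to 20790 and 18150 to 19090 CPM, and right ventricular sections 17270 to 21370 and 16520 to 19170 CPM. The comparisons may thus not set atrial against ventricular muscle. In atrial over left ventricular sections, median log2 differences were 2.05 for atrial muscle, 1.82 for smooth muscle and 0.5 for fibroblast markers. They were 0.08 for heart muscle, -0.05 for endothelial and -0.76 for blood markers. The part of cell types in the section differences was not tested. Between sections compared by label the 9 genes differed little, with the mouse as a block in edgeR's test. None was called between atrial and left ventricular sections (0.155% of genes were), between atrial and right ventricular sections (0.606%) or between right and left ventricular sections (0.02%). DESeq2 called none of them either, beside 0.155%, 0.0807% and 0% of genes in the same 3 comparisons. An unadjusted p under 0.05 was found for 2 of the 9 between atrial and left ventricular sections (12.6% of genes), 1 between atrial and right ventricular (7.27%) and 1 between right and left ventricular sections (5.21%). The value nearest to a call was that of Hspb1 in atrial over left ventricular sections, at a log2 difference of 0.46 (SE 0.11, adjusted p = 0.0886). It was positive in 7 of 7 mice, from 0.18 to 0.75, and between right and left ventricular sections it was positive in 6 of 6 mice, at 0.25 (SE 0.11, adjusted p = 0.882). Hspb1 had 235, 113, 107 and 152 CPM in atrial sections of nanoplastics mice and 120, 118 and 186 CPM in those of controls. In left ventricular sections it had 139, 75.8, 91 and 130.3 CPM in nanoplastics mice and 105, 90 and 121 CPM in controls. Over 13 alternative analyses the difference lay between 0.36 and 0.57, and it was called in 2. These were edgeR's test without nanoplastics mouse 4 (adjusted p = 0.0252, beside 1.87% of genes) and with library totals (0.0206, beside 0.811%). Leaving out any other mouse gave an adjusted p of 0.132 to 0.293 in edgeR's test, and DESeq2 gave 0.232. Bag3 stood at 0.45 (SE 0.21, adjusted p = 0.382) in atrial over left ventricular sections, positive in 5 of 7 mice, and at 0.50 (SE 0.22, adjusted p = 0.546) in atrial over right ventricular sections, positive in 4 of 6. Hspb7 stood at -0.03 (SE 0.10, adjusted p = 0.937) in atrial over left ventricular sections.

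An interaction term, fitted to all 21 libraries with the mouse as a block, tested whether the treatment difference itself varied from section to section. None of the 9 genes was called by edgeR or by DESeq2, beside 0% of 6269 genes in either interaction by edgeR and 0.016% and 0% by DESeq2. At an unadjusted p under 0.05 there was 1 of the 9 for atrial minus left ventricular sections (5.5% of genes) and 0 for right minus left ventricular sections (3%). The widest was that of Stub1, whose treatment difference was higher by 0.67 in atrial than in left ventricular sections (SE 0.26, adjusted p = 0.855). For Hspb7 the interactions were -0.04 (SE 0.26) for atrial minus left ventricular and -0.03 (SE 0.27) for right minus left ventricular sections, each with an adjusted p of 1. With SEs of this size, the test does not show that the differences were equal in the 3 sections.

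The wider chaperone system was read from lists that were likewise chosen with earlier results of these data known. Of 40 genes of Hsp70, Hsp90, Hsp110, J-domain proteins and heat shock factors, 33 were tested in the whole heart and edgeR called none. Their median log2 difference was -0.22, beside -0.03 over all genes, and 26 of the 33 (78.8%) were negative, beside 53.4% of all genes. Hsph1, an Hsp110 exchange factor for Hsp70, stood at -0.68 (SE 0.22), Dnajb1, an Hsp40 of the heat shock response, at -0.65 (SE 0.57), and Hsf1, the main heat shock factor, at -0.21 (SE 0.31). The constitutive Hsp70 gene Hspa8 was at -0.01 (SE 0.13) and Hsp90aa1 at 0.05 (SE 0.17). The inducible Hsp70 genes Hspa1a and Hspa1b did not pass the filter on low counts.

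Of 32 genes of the BAG family, selective autophagy and ubiquitin partners, 28 were tested and none was called, with a median of -0.02. Synpo2, which brings Bag3 to filamin, was at -0.08 (SE 0.16) and the autophagy receptor gene Sqstm1 at 0.04 (SE 0.17). Of 30 sarcomere and cytoskeleton clients, 29 were tested, with a median of 0.16, beside -0.03 over all genes. Of the 29, edgeR called 3 as higher and 1 as lower, beside 1.79% and 0.766% of all genes. Those called higher were the ventricular myosin light chain gene Myl2 (0.54, SE 0.11), cardiac troponin I, Tnni3 (0.53, SE 0.10), and vimentin, Vim (0.53, SE 0.14). The Z-disc titin cap gene Tcap was called lower (-0.55, SE 0.15). All 8 heart muscle markers were also positive (median 0.33, 1 called), as were all 7 fibroblast markers (median 0.55, 1 called). The widest shift was in atrial muscle markers, where all 5 tested were positive (median 5.93, 0 called). All 4 blood markers tested were positive too (median 0.6, 0 called). Of 6 endothelial markers 2 were positive (median -0.04). The lists share genes: Myh6, Actc1, Tnnt2, Tnni3, Mybpc3 and Ttn are both heart muscle markers and clients. Of the ventricular muscle markers 3 were tested, and only Myl2, also a client, was positive (median -0.21). The part of cell types in these values was not tested. Desmin, Des, stood at -0.17 (SE 0.13) and filamin C, Flnc, at -0.32 (SE 0.27). Of the other small heat shock protein genes only Hspb11 passed the filter, at 0.12 (SE 0.24).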

How the data were processed

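Per the labels' protocols, polyA RNA was captured, barcoded at the 5′ end, pooled and sequenced in paired reads. STAR is named without a version in the submitters' processing notes; build, annotation, strand setting and use of molecular identifiers were not stated in what was used here. The authors deposited raw counts per gene for 20960 genes in 21 libraries of 4662 to 2439314 counts, so that 1 count is 214.5 CPM in the shallowest library and 0.41 CPM in the deepest.

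The 9 genes and the pathway lists were chosen with earlier results of these data known. Counts were tested with edgeR 4.0.16 in R 4.3.3 (default expression filter, TMM, robust quasi-likelihood fit, Benjamini-Hochberg adjustment over all genes tested, threshold 0.05). Whole hearts are sums of a mouse's sections, so that each section counts by its depth. Treatment within sections used each section's libraries, and section pairs and interactions had the mouse as a block, since sections share an animal per the labels (same-mouse deviations correlated with a median r of 0.36 over 19 pairs). SE is the log2 difference over the root of F. Named pathway genes are those called, up to 4 per direction, and 11 chosen by name; like genes are the 3 with the highest r of log2(CPM + 1) among genes at a median of at least 50 CPM, of which 1 is not reported here. Lengths are the longest GENCODE M21 transcript, found for 97.8% of symbols. Alternatives were DESeq2 1.42.0, its size factors, library totals, no filter, each mouse left out, a replicate block, equal section weight (limma 3.58.1) and a length trend removed. Fits were checked on simulated counts.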

Additional observations from a re-analysis of the deposited data

Results flagged for a closer look

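In 27 groups of 4 nanoplastics mice (9 genes; atrial, left ventricular and summed), the gap between the outermost mouse and its nearest neighbour was set against the group's whole range. Chance flags about 1 in 20 such groups. Both groups past the limit were Bag3 in nanoplastics mouse 4, which stood above the other 3 mice. In left ventricular sections mouse 4 had 26.3 CPM, from 22 counts, beside 12.2, 10.3 and 10.2 CPM in mice 1 to 3. With sections summed it had 18.9 CPM, beside 14.3, 13.9 and 14.6 CPM. The values share the left ventricular library, and their cause was not tested. Right ventricular sections and control groups have too few libraries for this comparison.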

How the results depend on the processing

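For the whole heart edgeR called 1 of the 9 genes and 217 of all genes (2.56%). DESeq2 called 2 (Hspb3 and Hspb7), beside 333 of the 3549 genes to which it gave an adjusted p (9.38%). Library totals in place of TMM called 3 (Hspb7, Hspb8 and Stub1), beside 797 of all (9.39%). DESeq2's size factors, the length trend removed and sections at equal weight gave 0 each (208, 63 and 0 of all). Leaving out any mouse gave 0, and 0 to 201 of all genes, with 0 of all without control mouse 2. The fit with a replicate block called 2 (Hspb7 and Stub1), beside 313 of all (3.69%). However, mouse numbers share only a number between treatments (deviations correlated by 0.072, 0.09 and -0.044). Where edgeR called 0, DESeq2 called 1 in atrial and 1 in left ventricular sections. Beside them were 94 of 486 (19.3%) and 80 of 693 (11.5%) of the genes with an adjusted p. Library totals called 2 in right ventricular sections (Hspb7, Bag3), beside 234 of all (5.21%), and 2 in left ventricular sections (Hspb7, Stub1), beside 23 (0.423%). They called 1 in atrial over left ventricular sections (Hspb1), beside 42 of all (0.811%). No filter called 1 in left ventricular sections (Stub1), beside 30 of all (0.168%). Leaving out a mouse gave 0 to 1 in left ventricular sections (Stub1, without control mouse 3), beside 21 of all (0.338%). It gave 0 to 1 in atrial over left ventricular sections (Hspb1, without nanoplastics mouse 4), beside 98 of all (1.87%). Without division by length 3 of the 9 levels kept their rank. The cause of these changes was not tested. Library totals moved the median of all genes to -0.27 from -0.03. Over 15 alternatives of the whole heart Hspb7, Hspb8, Bag3 and Stub1 were negative and Hspb3 and Cryab positive in all. Hspb2 (-0.28 to 0.27), Hspb1 (-0.51 to 0.25) and Hspb6 (-0.51 to 0.25) changed sign. Among these 15, the fit with sections at equal weight gave the 4662-count right ventricular library of nanoplastics mouse 2 a full section's weight. Hspb1, Hspb2, Hspb3, Hspb6, Bag3 and Stub1 had 0 counts in that library, so this fit is a weak check on them. That includes the negative sign of Bag3 and Stub1, which a count of 0 in a treated library favours. Depth limits Bag3, at 3 to 51 counts, and the right ventricle of nanoplastics mouse 2.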
